A study of Drosophila melanogaster with 2 samples.

Results

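Of the 4045 peaks in the reproducible peak list of CG7786-eGFP in fly embryos, 102 (2.52%) had a summit near the annotated start of a noncoding RNA gene and near no protein-coding start. A peak was kept when its summit lay within 500 bp of a transcription start site (TSS) of a gene that the Ensembl annotation calls neither protein-coding nor a transposable element, and no protein-coding TSS lay within 500 bp of it. Another 101 peaks had both kinds of start in reach, 2034 had a protein-coding start only, and 1808 had neither. The 102 peaks named 97 noncoding genes as their nearest. The nearest gene was a long noncoding RNA (lncRNA) for 74 peaks, an antisense RNA for 7, a spliceosomal or related small nuclear RNA (snRNA) for 7, a microRNA precursor for 6, a small nucleolar RNA (snoRNA) for 4, a transfer RNA (tRNA) for 3, and the snoRNA host gene Uhg4 for 1.

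CG7786 encodes a protein with a basic leucine zipper domain. Whole Drosophila melanogaster embryos aged 0 to 24 hours, males and females pooled, were used for chromatin immunoprecipitation and sequencing; the flies were a stable transgenic line that expresses CG7786 with GFP joined to its C-terminal end (CG7786-eGFP). There were 2 libraries of 1 group, biological replicates 2 and 3 of the same line, and no other genotype, age or treatment. The labels give the antibody in different ways, as one against GFP in the free text and as CG7786 in its own field. A whole embryo of any of these ages mixes tissues and stages, so a peak cannot be assigned to a cell type, and the tagged protein is expressed from a transgene in 1 line.

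The authors made the peak list by setting the peaks of both replicates and of the pooled reads against each other (the irreproducible discovery rate procedure, IDR), each called against 1 control alignment that was not analysed here. The strength of a peak is the authors' signal value, a score on the peak caller's own scale, which ranks peaks within a list and is not a read count. Each replicate list has its own scale, so the values of replicates 2 and 3 are read by their rank. No source used here gives the read depth, and no interval below needs it. All intervals below are exact 95% binomial intervals, which cover counting error only, since peaks and genes that lie close together are not independent. With 1 group and no chance test over regions, shares are described beside one another and no p-value is given.

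Noncoding RNA genes are transcribed by more than one machinery. RNA polymerase II makes lncRNAs, antisense RNAs, most snRNAs and the long precursors of microRNAs, while RNA polymerase III makes tRNAs, U6 and 7SK. The annotated start of a microRNA precursor or of a snoRNA cut from an intron is the end left by processing and not the place where transcription begins, so for the 10 peaks at such genes the distance to the start does not place the peak at a promoter. Spliceosomal snRNAs recognise splice sites and build the spliceosome, and in the fly they are encoded by several near-identical copies.

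The sequences at the summits of the 3 lncRNA genes with the strongest peaks, and of 2 lncRNAs with well-known functions, Hsromega and flam, show where each summit falls relative to the RNA. Each is 101 bases of the RefSeq Release 6 (dm6) genome centred on the summit, written 5′ to 3′ on the strand of the RNA gene, with capitals for bases inside the annotated RNA gene.
lncRNA:CR44619 first summit, chrX:12751381-12751481, plus strand: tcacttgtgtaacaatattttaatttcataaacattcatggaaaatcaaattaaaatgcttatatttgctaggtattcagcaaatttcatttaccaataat
lncRNA:CR44619 second summit, chrX:12752293-12752393, plus strand: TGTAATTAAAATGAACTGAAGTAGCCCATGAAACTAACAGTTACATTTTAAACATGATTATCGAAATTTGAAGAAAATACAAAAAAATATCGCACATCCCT
lncRNA:CR31044, chr3R:29214421-29214521, plus strand: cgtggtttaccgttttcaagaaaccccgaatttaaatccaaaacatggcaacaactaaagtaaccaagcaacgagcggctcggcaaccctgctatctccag
lncRNA:CR31840, chr2L:14024015-14024115, minus strand: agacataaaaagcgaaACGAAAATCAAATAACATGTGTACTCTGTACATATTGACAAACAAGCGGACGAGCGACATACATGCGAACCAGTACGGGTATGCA
lncRNA:Hsromega, chr3R:21296318-21296418, plus strand: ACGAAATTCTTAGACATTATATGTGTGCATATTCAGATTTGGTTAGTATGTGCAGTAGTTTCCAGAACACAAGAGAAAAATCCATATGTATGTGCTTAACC
lncRNA:flam, chrX:21631608-21631708, plus strand: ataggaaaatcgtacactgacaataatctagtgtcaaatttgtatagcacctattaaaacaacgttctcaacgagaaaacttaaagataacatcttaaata
The first CR44619 window, the CR31044 window and the flam window lay wholly outside the gene record. The second CR44619 window and the Hsromega window lay wholly inside it, and the CR31840 window crossed the start.

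The summits of 3 snRNA genes are shown because they fell inside the annotated RNA, 17, 21 and 26 bp past its start. Each of these peaks is 404 bp wide and also covers bases ahead of the start. Binding over the RNA and binding just ahead of it cannot be told apart here. The windows are 101 bases on the strand of the RNA, 5′ to 3′, with capitals for the bases of the annotated snRNA.
snRNA:U1:95Ca, chr3R:23859563-23859663, minus strand: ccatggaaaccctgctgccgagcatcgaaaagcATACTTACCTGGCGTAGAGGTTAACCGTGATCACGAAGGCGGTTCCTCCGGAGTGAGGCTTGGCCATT
snRNA:U1:21D, chr2L:901583-901683, minus strand: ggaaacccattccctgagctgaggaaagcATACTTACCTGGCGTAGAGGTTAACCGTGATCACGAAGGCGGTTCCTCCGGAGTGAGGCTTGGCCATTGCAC
snRNA:U4:39B, chr2L:21215102-21215202, minus strand: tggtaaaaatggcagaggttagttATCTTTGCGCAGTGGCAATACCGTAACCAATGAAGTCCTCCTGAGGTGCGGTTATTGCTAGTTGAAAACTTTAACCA
Of the 101 bases, 68 lay in U1:95Ca, 72 in U1:21D and 77 in U4:39B. The U1 windows share their capitals from the first base on, since both genes have the same letters over all 164 bases.

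The peaks spanned the strengths of the list. Their signal values ran from 80.4 to 1455 with a median of 134.8 (quartiles 98.3 and 229.6), beside a median of 130.1 for all 4045 peaks, 136.4 for the peaks at coding promoters only and 122.9 for those at no promoter. The 2022 strongest peaks of the list held 57 of the 102 (55.9%, interval 45.7 to 65.7), and 31 had a signal value of 200 or more, while 27 were under 100. When the list was split by rank into 5 bins of 809 peaks, the strongest bin held 29 of them (3.58%, interval 2.41 to 5.11), and the other bins held 16, 19, 17 and 21. Of the next 4045 entries of the pooled list, below the IDR list, 99 (2.45%) met the same rule, so the share was about the same beyond the end of the list.

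**Figure D1:**
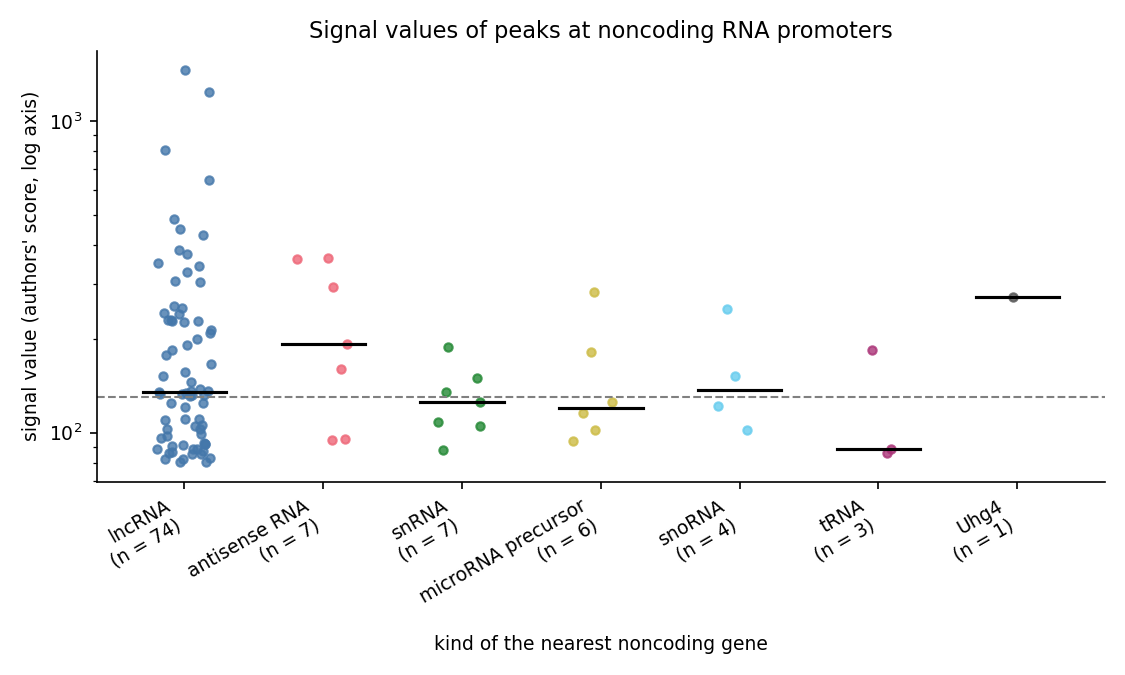
Signal value of each of the 102 peaks (vertical axis, the authors' score on a log axis) by the kind of the nearest noncoding gene; points are peaks, black bars are medians and the dashed line is the median of all 4045 peaks. The 4 strongest peaks, from 648.1 to 1455, belonged to lncRNAs, and the 7 snRNA peaks lay between 88.3 and 188.9.

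Most of the peaks recurred in both libraries. The IDR list was itself made from the agreement of these libraries, so recurrence is in part built in and is a description. Of the 102, 85 (83.3%, interval 74.7 to 90.0) had a summit within 200 bp among the 4045 strongest entries of each replicate, where the share over all peaks of the list was 77.5%, inside that interval. The weaker peak of lncRNA:CR31840 counts here through the entry of its strong neighbour; by each peak's own matched entry, 84 were in both. Replicate 2 held 95 of them and replicate 3 held 91, 10 were found in replicate 2 only, 6 in replicate 3 only, and 1 in neither. The matched summits lay a median of 14 bp from the pooled summit in replicate 2 and 5.5 bp in replicate 3. Across 101 peaks matched in both full lists, Spearman's rho between the ranks was 0.77, and across the 3976 such peaks of the whole list it was 0.75; the points share both libraries and the pooled call, and the coefficient is a description.

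**Figure D2:**
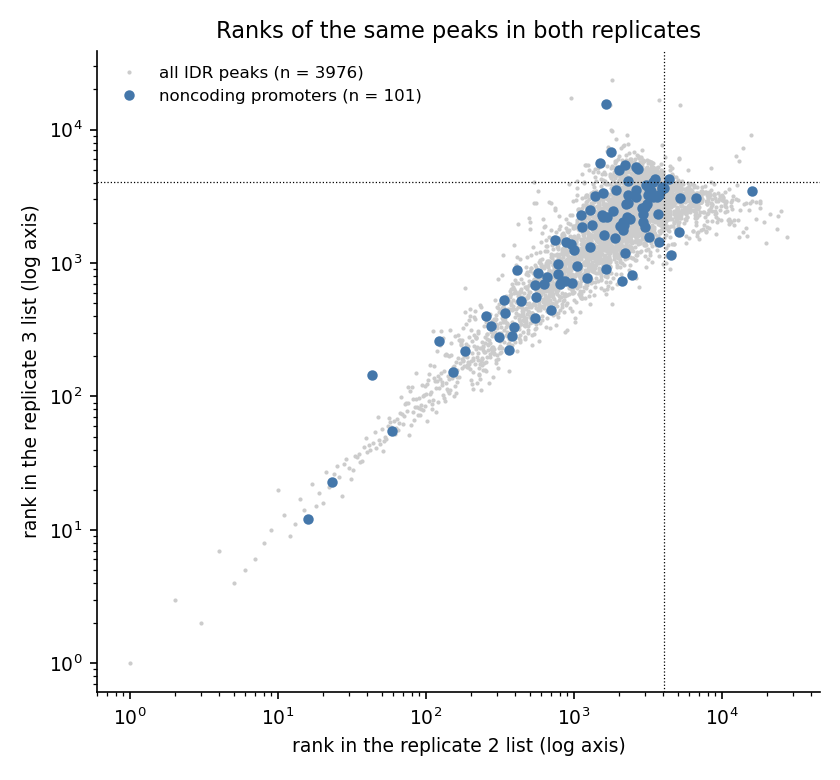
Rank of each peak in the replicate 2 list (horizontal) against its rank in the replicate 3 list (vertical), both on log axes with rank 1 the strongest; blue points are 101 peaks at noncoding promoters, grey points all 3976 peaks matched in both lists, and dotted lines mark rank 4045. The strongest peaks kept similar ranks, and lncRNA:CR45643 stood apart with rank 1633 against 15621.

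Among the matched peaks, 5 had ranks that differed most when the replicates were compared as a ratio of ranks. The peak of lncRNA:CR45643 ranked 1633 in replicate 2 and 15621 in replicate 3, and the weaker of the CR31840 peaks ranked 15910 in replicate 2 and 3458 in replicate 3. That weaker peak overlaps a strong neighbour with a summit 199 bp away. Entries closer to the neighbour were not matched to it, so its ranks depend on this rule. The peak of lncRNA:Hsromega ranked 4540 and 1146, that of lncRNA:CR45365 ranked 1786 and 6844, and that of lncRNA:CR45588 ranked 1508 and 5653, in replicates 2 and 3 respectively. These peaks were of middle or low strength, with signal values of 135.6 or less. The peak of lncRNA:CR43918, at rank 3988 of the IDR list, had no entry within 200 bp in replicate 2.

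The strongest of the 102 peaks were at lncRNA:CR44619 on the X, a gene of 2705 bp with 2 peaks. The stronger had a signal value of 1455 in the pooled list, 546.9 in replicate 2 and 915.9 in replicate 3, where it ranked 16 and 12. The weaker had 1239, 471.7 and 785.6, and ranked 23 in each. The summits lay 436 bp upstream and 476 bp downstream of the same start, 912 bp apart, so neither is at the start itself, and the nearest coding start, of CG4004, was 5114 bp from the first. Both ranked among the 23 strongest of all peaks in the IDR list.

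lncRNA:CR31044 on 3R had the next strongest peak, with a signal value of 810.5 pooled, 297.5 in replicate 2 and 512.9 in replicate 3, at ranks 59 and 55. Its summit lay 91 bp upstream of the start, and the nearest coding start, that of the translation elongation factor subunit gene eEF1gamma, was 5701 bp away. lncRNA:CR31840 on 2L, a gene of 378 bp, had a signal value of 648.1 pooled, 359.1 in replicate 2 and 303.7 in replicate 3. Its ranks, 43 and 145, differed more than those of the 3 peaks above it. The summit lay 34 bp inside the RNA, and a second, weak summit of 85.2 lay 199 bp away on the upstream side.

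lncRNA:CR43626 on 3L also had 2 peaks, 1258 bp apart. The stronger, with a signal value of 484.3 pooled, 192.0 in replicate 2 and 293.1 in replicate 3, lay 370 bp upstream of one of its annotated starts but inside the gene record, and the weaker, with 97.9, lay 374 bp upstream of another. The other lncRNAs with 2 peaks that met the rule were CR44339, with signal values of 241.7 and 88.4 at summits 204 bp apart, and CR44366, with 226.8 and 124.7 at summits 823 bp apart. Each summit of a pair is an entry of its own in the list, though the intervals of the CR31840 pair and of the CR44339 pair overlap.

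The rest of the 20 strongest peaks ranged from 254.8 to 449.0. lncRNA:CR45668 had 449.0, with a summit 189 bp upstream of its start and 683 bp from that of Act5C, a cytoplasmic actin gene. lncRNA:CR44867 had 430.4, lncRNA:CR44917 had 384.9 and lncRNA:CR46102 had 375.0. The last lay inside the gene body of LpR2, a lipoprotein receptor, 2281 bp from its nearest start. lncRNA:CR44810 had 351.3 at 4542 bp from the start of slbo, which encodes the fly C/EBP. lncRNA:CR44380 had 342.0, and lncRNA:CR44478 had 327.7 inside the body of Socs36E, an inhibitor of JAK/STAT signalling. lncRNA:CR44676 had 306.5, lncRNA:CR44363 had 304.8 and lncRNA:CR45325 had 254.8. No function is stated here for these numbered lncRNAs.

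Named lncRNAs had peaks of middle or low strength. A list of 21 names of known fly lncRNAs matched 15 lncRNA genes, and 3 had a peak while 12 had none; over all lncRNA genes, 5.35% had a summit within 500 bp. lncRNA:Hsromega, a heat-inducible RNA that organises nuclear speckles, had a signal value of 135.6 pooled, 32.8 in replicate 2 and 110.9 in replicate 3, with its summit 241 bp inside the RNA. It was in the top list of replicate 3 but ranked 4540 in replicate 2. lncRNA:flam, the transcript of a piRNA cluster that silences retrotransposons in the ovary, had 133.4 pooled, 53.8 in replicate 2 and 81.2 in replicate 3, at ranks 2054 and 1907, with its summit 233 bp upstream of the start. lncRNA:roX1, an RNA of the dosage compensation complex that coats the male X, had 86.1 pooled, 30.4 in replicate 2 and 58.1 in replicate 3, at ranks 5187 and 3079. Its summit lay 71 bp upstream of one of its annotated starts but inside the gene record.

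The 7 antisense RNA peaks had a median signal value of 193.0. All 7 were in both top lists, where the share over all peaks of the IDR list was 77.5%. asRNA:CR45999 had 362.5 pooled, 131.4 in replicate 2 and 227.5 in replicate 3. asRNA:CR45908 had 359.9, 151.5 and 212.2, and its summit lay inside the body of CG1943. asRNA:CR45281 had 292.5, 123.6 and 172.2. The other 4 lay in the bodies of gce, a juvenile hormone receptor gene (193.0), Oda, the ornithine decarboxylase antizyme gene (160.7), sau, a Golgi phosphoprotein gene (95.4), and CtsF, a cathepsin gene (95.1). The coding start nearest to these 7 summits was 601 to 3939 bp away with a median of 935, against 3514 for the lncRNA peaks, and for the 5 inside a coding body, binding at the antisense start and binding within the coding gene cannot be told apart.

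The 7 snRNA peaks were weak to middling and between them covered every snRNA of the major spliceosome (U1, U2, U4, U5 and U6). U1:95Ca had a signal value of 188.9 pooled, 94.2 in replicate 2 and 95.4 in replicate 3. U6:96Ac and its neighbour U6:96Ab shared 1 peak of 150.2, with 68.7 and 80.4 in the replicates. U5:63BC had 135.3, U2:34ABb had 125.1, U4:39B had 108.2, U1:21D had 105.1 and 7SKa, whose RNA holds the elongation factor P-TEFb inactive, had 88.3. In replicate 2 these 7 peaks had signal values of 42.3 to 94.2, and in replicate 3 of 46.6 to 95.4. Of the 7, 6 were in both top lists, where the share over all peaks of the IDR list was 77.5%. The exception, 7SKa, ranked 2301 in replicate 2 and 4111 in replicate 3, just past the end of the top list.

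Most snRNA summits fell inside the RNA, among them the 3 whose sequences are given above. They lay 17 bp (U1:95Ca), 21 bp (U1:21D), 26 bp (U4:39B), 77 bp (U5:63BC), 125 bp (7SKa) and 153 bp (U2:34ABb) downstream of the start, and the U6:96Ac summit lay 126 bp upstream. Thus 1 of 7 was upstream, against 60 of 102 overall. The coding starts nearest to these summits were 642 bp (U2:34ABb) to 30439 bp (U1:95Ca) away.

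By gene, snRNAs had the highest share with a peak of the noncoding classes described here. A summit of the IDR list lay within 500 bp of the start of 9 of 32 snRNA genes (28.1%, interval 13.7 to 46.7), 8 of them through the peaks described here and U5:35D through a peak that also has a coding start in reach. For protein-coding genes the share was 19.5%, which lies inside the snRNA interval, and for all 4219 noncoding genes it was 5.17% (218 genes, interval 4.52 to 5.88), below the snRNA interval. Among genes with no other coding start within 1000 bp, the shares were 7 of 27 snRNA genes (25.9%, interval 11.1 to 46.3), 10.5% of 7960 coding genes and 3.30% of 3029 noncoding genes. Coding genes have more annotated starts each, a mean of 1.41 against 1.04 for noncoding genes. Where such genes had 1 annotated start, the shares were 6.73% of 6110 coding genes, 3.02% of 2946 noncoding genes and again 7 of 27 snRNA genes. In the 30000 pooled entries, which hold background as well as peaks, 17 of 32 snRNA genes had an entry within 500 bp (53.1%, interval 34.7 to 70.9), against 53.4% of coding and 29.1% of noncoding genes; tRNA genes (44.1%), antisense RNA genes (36.6%) and snoRNA genes (35.0%) lay inside the snRNA interval. By family, 2 of 5 U1 genes, 2 of 3 U6 genes, 1 of 6 U2, 1 of 3 U4, 1 of 7 U5 and 1 of 2 7SK genes had one of the 102 peaks. The single U7, U11, U12, U4atac and U6atac genes had no summit of the IDR list within 500 bp. U1, U6 and U2 with peaks have 2, 2 and 1 other genes with exactly the same letters, so the copy to which a peak belongs is uncertain; no source used here says how reads that match several copies were placed. U4:39B, U5:63BC and 7SKa have no copy with exactly the same letters. Copies of another length were not compared with them, so how far near-identical copies make their placement uncertain was not tested.

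The other classes were lower. Of lncRNA genes 104 of 1944 had a summit (5.35%, interval 4.39 to 6.45), and of antisense RNA genes 42 of 503 (8.35%, interval 6.08 to 11.1), only 7 of them through the peaks described here. With no coding start within 1000 bp, 3 of 209 antisense genes remained (1.44%, interval 0.297 to 4.14) and 64 of 1509 lncRNA genes (4.24%, interval 3.28 to 5.38). The share was 15 of 290 for tRNA genes (5.17%), 11 of 274 for snoRNAs, 10 of 260 for microRNA precursors and 5 of 268 for pseudogenes, none of the last through the peaks described here. No rRNA gene of 99 had one (interval 0 to 3.66). These are repeated copies, and the bearing of this on the count was not tested.

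**Figure D3:**
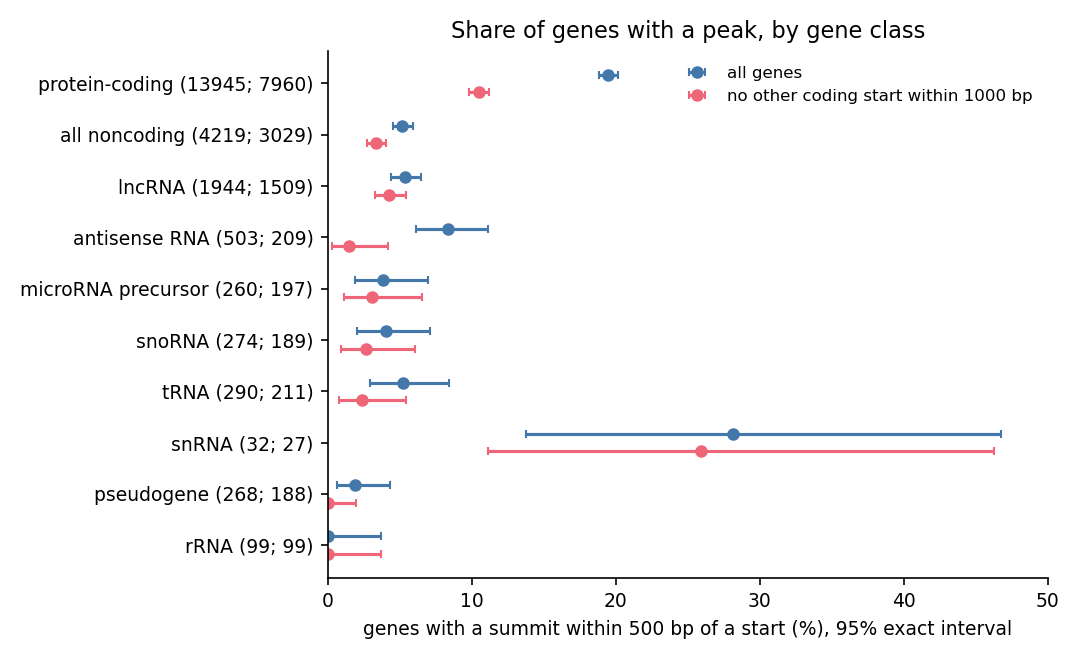
Share of annotated genes of each class with a summit of the IDR list within 500 bp of a start (horizontal axis, percent), for all genes (blue) and for genes with no other coding start within 1000 bp (red), with exact 95% intervals; numbers in brackets give the genes in each. The snRNA genes stood at 28.1% and 25.9% with wide intervals, coding genes at 19.5% and 10.5%, and the other noncoding classes at 8.35% or less.

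At tRNA genes, tRNA:Gln-TTG-2-1 had a signal value of 185.0 pooled, 85.5 in replicate 2 and 96.5 in replicate 3, with a summit 168 bp upstream. The other 2 peaks, at tRNA:Leu-CAG-1-2 (88.4) and tRNA:Ile-AAT-1-9 (86.4), missed the top list of replicate 3, with ranks 4268 and 5451. tRNA:Leu-CAG-1-2 has 7 other genes with the same letters and tRNA:Ile-AAT-1-9 has 8. Unlike most snRNA summits, these 2 lay outside the repeated RNA. The first was 208 bp downstream of the start of a gene of 83 bp, and the second 454 bp upstream of its start. How far the copies make these placements uncertain was not tested.

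Uhg4 is a snoRNA host gene whose introns carry snoRNAs, and its annotated start is that of the host transcript. Its signal value was 271.9 pooled, 110.2 in replicate 2 and 165.8 in replicate 3, at ranks 554 and 552, and its summit lay 89 bp upstream of the start and 526 bp from the coding start of Boot. The other 6 snoRNA host genes matched to the annotation had no peak, where 5.17% of all noncoding genes had a summit within 500 bp. So few genes give only a description. The strongest snoRNA peak, at snoRNA:Or-ACA6, had 250.2 pooled, 103.3 in replicate 2 and 146.1 in replicate 3, and lay 460 bp from the snoRNA inside the body of egr, the fly tumour necrosis factor gene.

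Of 90 microRNA precursor genes on a list for embryonic development, 2 had a peak within 500 bp of the precursor and 88 had none, where 10 of all 260 precursors (3.85%) had one. Precursor starts are not transcription starts, so the lncRNA records around them were examined as well. Of the 88, 5 lie on the same strand inside the record of a lncRNA with a peak described here: mir-279 and mir-996 in CR31044 (1114 and 2713 bp from its 810.5 summit), mir-282 in CR43626 (798 bp from the 484.3 summit), mir-8 in CR43650 (848 bp from a summit of 251.7) and mir-bft in CR43314 (17477 bp from a summit of 96.1). mir-275 had 282.6 pooled, 96.7 in replicate 2 and 186.6 in replicate 3, with a summit 468 bp upstream of the precursor, and mir-14, which limits cell death and fat storage in the fly, had 102.3 pooled, 51.0 in replicate 2 and 62.2 in replicate 3, with a summit 77 bp upstream. Both precursors and their summits also lie inside a lncRNA record on the same strand that has a peak of its own. For mir-275 it is CR43857 (145.6, 170 bp upstream of the lncRNA start), and for mir-14 it is CR43651 (103.1, 76 bp downstream). Of 6 structural RNA genes on a list, 7SKa alone had a peak, where 5.17% of all noncoding genes and 28.1% of snRNA genes had a summit within 500 bp. With so few genes the count is only a description. The remaining microRNA precursors with peaks were mir-9378 (181.2), mir-9377 (125.5), mir-2282 (115.3) and mir-4962 (94.3), each inside the body of a coding gene, among them Tis11 for mir-9377 and sty, an inhibitor of receptor tyrosine kinase signalling, for mir-2282.

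The summits were less tightly placed at the noncoding starts than those of coding peaks were at theirs. They were upstream of the nearest noncoding start for 60 of 102 peaks (58.8%, interval 48.6 to 68.5), against 81.9% (interval 80.2 to 83.6) of the 2034 coding-only peaks, and the median distance was 193.5 bp against 94 bp. Coding genes have more annotated starts each, so the comparison was repeated for peaks with 1 start in reach: 51 of 87 noncoding peaks were upstream (58.6%, interval 47.6 to 69.1) at a median distance of 202 bp, and 814 of 972 coding peaks (83.7%, interval 81.3 to 86.0) at a median of 153.5 bp. The intervals for the upstream share did not overlap in either form, and no test over regions was made. Within 100 bp of the start lay 26 of the 102 summits, within 250 bp 62, and beyond 400 bp 20. Of the 60 upstream summits, 5 were inside the gene record, ahead of an internal start.

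**Figure D4:**
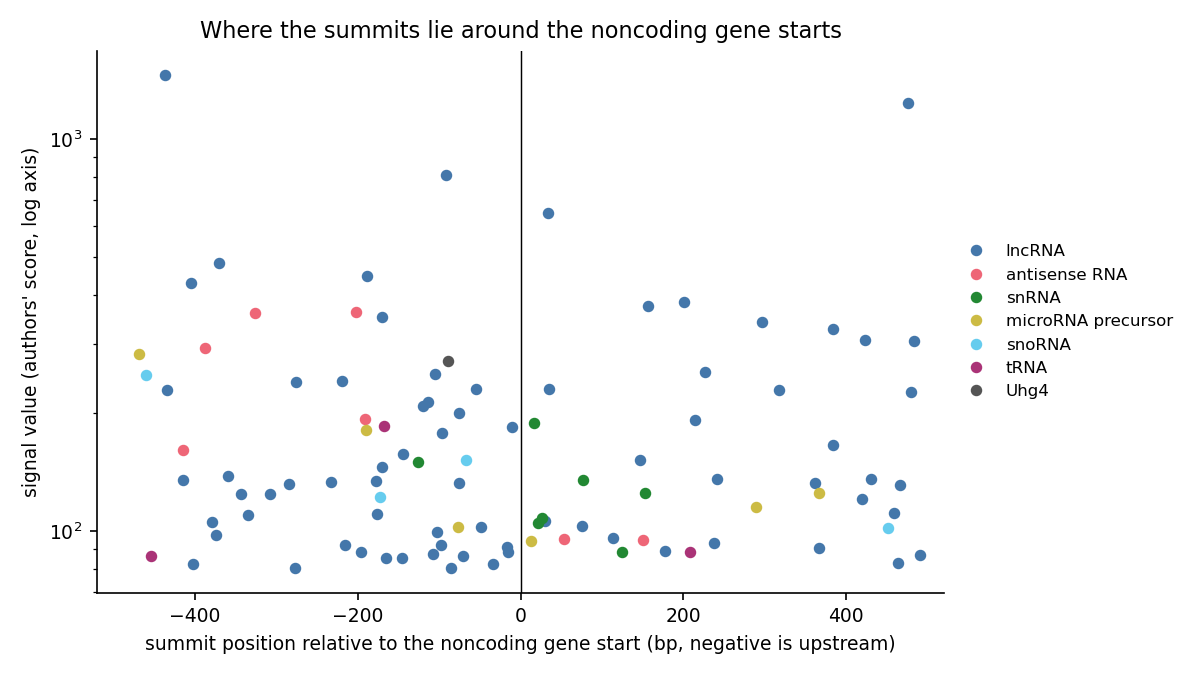
Position of each of the 102 summits relative to the nearest noncoding start (horizontal axis, bp in the direction of the RNA, negative upstream) against its signal value (vertical axis, log); colours give the kind of gene. The summits spread over the whole window, with 60 upstream and 42 at or downstream of the start, and 6 of the 7 snRNA points lie just to the right of 0, at 17 to 153 bp.

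At the edges of the rule, the summits just inside the noncoding limit were those of CR43648 (491 bp, signal value 86.9), CR44363 (483 bp, 304.8) and CR44366 (480 bp, 226.8). Those just outside it were near CR44828 (511 bp, 176.1), tRNA:Leu-CAA-2-2 (512 bp, 99.3) and CR32660 (516 bp, 151.6). At the coding limit, the peaks of CR45010 (507 bp from a coding start), Uhg4 (526 bp) and CR45364 (568 bp) were kept, and those at CR43644 (487 bp), asRNA:CR46044 (484 bp) and CR45668 (467 bp) were not. CR45668 thus had 1 peak on each side of the rule, with 449.0 inside and 143.7 outside.

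Coding genes were often not far. The nearest coding start was a median of 3378 bp from the summit (507 to 32872 bp), within 1000 bp for 14 peaks, within 2000 bp for 32 and beyond 10000 bp for 16. The summit lay in a coding gene body for 35 peaks (34.3%, interval 25.2 to 44.4), against 56.7% of all peaks and 73.3% of those at no promoter. For peaks with both kinds of start the share was 35.6%, and for coding-only peaks 44.0%, both inside that interval. The rule takes out summits within 500 bp of a coding start, so it bears on the share of the 102. The noncoding gene overlapped no coding gene for 62 peaks, a coding gene on the opposite strand alone for 25 and one on the same strand for 15. No RefSeq mRNA start lay within 500 bp of any of the 102 summits. Another IDR summit lay within 5000 bp for 58 of the 102 (56.9%, interval 46.7 to 66.6), beside 51.8% of all peaks. Which gene a peak acts on was not measured.

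The windows of 200 bp around the summits were searched on both strands for 14 short motifs. DRE and Motif 1, core promoter motifs typical of housekeeping genes, were not found in them. DRE, the DNA replication-related element (TATCGATA), was in 0 of 102 windows, which allows up to 3.55%, where 8.75% of coding-only windows, 10.9% of windows with both kinds of start, 0.608% of windows at no promoter and 1.02% of 4391 windows at all noncoding starts held it. Motif 1 (core GGTCACAC) was also in 0 of 102, against 4.77% of coding-only windows, 4.95% of windows with both, 0.332% at no promoter and 0.660% at noncoding starts. For both motifs the coding-only share lay above the interval and the shares at no promoter and at noncoding starts inside it.

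For the other motifs, as for Motif 1, the share over all 4045 peaks lay inside the interval of the 102. TATAAA was in 32 windows (31.4%, interval 22.5 to 41.3) against 28.8%, and GCCAT, the core of the site of the Polycomb recruiter Pho, in 27 (26.5%, interval 18.2 to 36.1) against 27.7%. GAGAGAG, which the protein Trithorax-like binds, was in 7 (6.86%, interval 2.80 to 13.6) against 3.86%, and the GATA factor motif, spelled TGATAAG, in 4 (3.92%) against 4.20%, and in 2 of 117 (1.71%) without replicate 3. The E-box CACGTG was in 2 (1.96%) against 2.50%. CAGGTAG, the site of the early activator Zelda, was in 1 (0.980%) against 0.964%, and TGANTCA, an AP-1 site, in 2 (1.96%) against 5.02%, inside its interval of 0.238 to 6.90; in the peaks found from replicate 3 alone, without replicate 2, it was in 5 of 97 (5.15%). TTGCGCAA, a C/EBP site, TTACGCAA, a mixed site, and GTTCGANNC, the B box core inside tRNA genes, were in 0. The last was in 5.10% of windows at all noncoding starts, above the limit of 3.55%, and in 1.85% of all peaks. tRNA genes are 290 of the 4219 noncoding genes and were nearest to 3 of the 102 peaks. Those 3 summits lay 168, 208 and 454 bp from the tRNA start, and the bearing of this on the B box share was not tested. The median GC content was 37.25%, beside 37% for all peaks and 42% for windows at all noncoding starts.

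**Figure D5:**
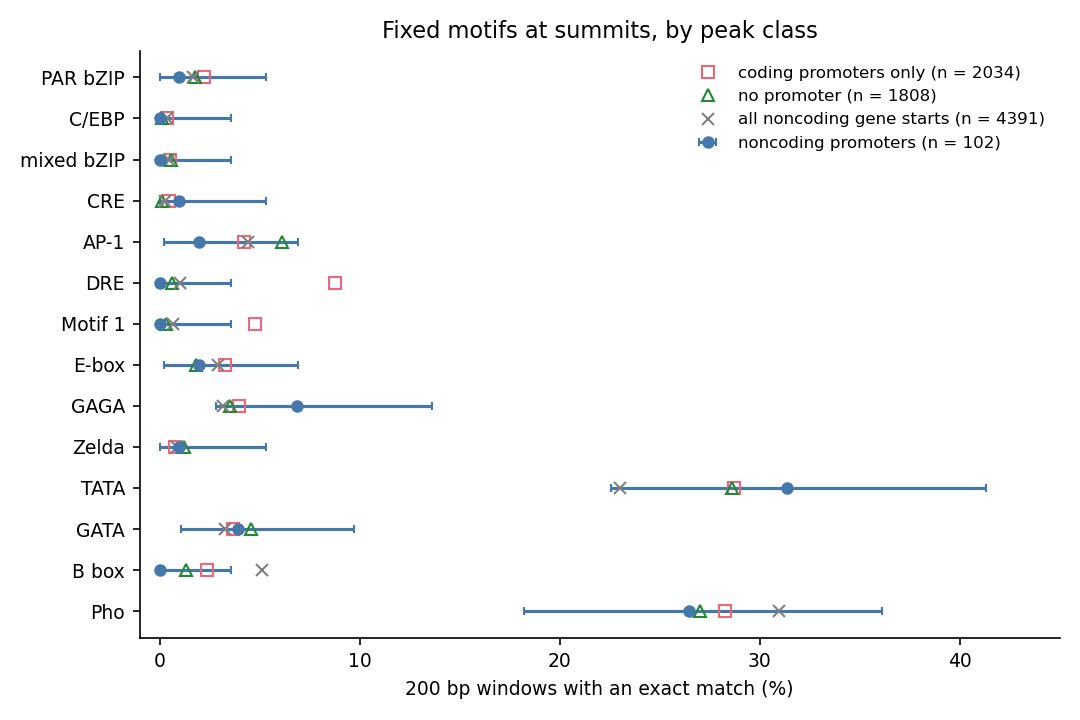
Share of 200 bp windows that hold each of the 14 motifs (horizontal axis, percent, exact matches on either strand), for the 102 peaks at noncoding promoters with exact 95% intervals (blue), coding-only peaks (red squares), peaks at no promoter (green triangles) and all noncoding starts (grey crosses). DRE and Motif 1 are at 0 in the 102 peaks, with the coding-only share outside the interval.

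Sites of the kind that PAR basic leucine zipper proteins bind, TTACGTAA or TTATGTAA, were in 1 of 102 windows (0.980%, interval 0.0248 to 5.34) against 1.95% of all peaks and 1.69% of windows at noncoding starts. That window was at asRNA:CR45908, where the site reads TTACATAA on the strand of the RNA, the reverse complement of TTATGTAA. The cyclic AMP response element TGACGTCA was in 1 window, at mir-275, against 0.321% of all peaks. Both windows of 200 bp around the summits are given 5′ to 3′ on the strand of the RNA, with capitals for the match.
asRNA:CR45908, chr3R:7075713-7075912, minus strand: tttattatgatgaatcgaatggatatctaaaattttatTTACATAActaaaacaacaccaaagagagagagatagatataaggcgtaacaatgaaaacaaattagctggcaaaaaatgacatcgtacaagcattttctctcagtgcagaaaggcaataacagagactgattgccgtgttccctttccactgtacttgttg
mir-275, chr2L:7425227-7425426, plus strand: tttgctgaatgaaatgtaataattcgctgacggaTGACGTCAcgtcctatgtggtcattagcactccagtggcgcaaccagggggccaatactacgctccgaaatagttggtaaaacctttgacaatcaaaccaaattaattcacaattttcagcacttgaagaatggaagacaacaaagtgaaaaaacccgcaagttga
The asRNA:CR45908 window was also 1 of the 7 with GAGAGAG. A match is a description of the letters and not a measured binding site.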

How the data were processed

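The 4 peak lists on dm6 that were used were all deposited by the authors: relaxed lists of 30000 entries for replicate 2, replicate 3 and the pool, and the IDR list of 4045. The signal value is the authors' score per peak and was used to rank peaks within a list. The −log10 q-value deposited by the authors is 3.91 for every IDR peak and could not rank them. All 4045 IDR signal values equal the highest 4045 of the pooled list. Per the text deposited with each library, peaks were called against 1 control alignment; no source used here names the aligner, the caller or the read depth.

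Starts came from Ensembl release 115 and bases from the RefSeq Release 6 genome. A summit is the list's start plus its offset. A replicate entry was matched within 200 bp, taking the best-ranked entry not closer to another IDR summit; counts of peaks in a top list took any of its entries within 200 bp. Intervals are Clopper-Pearson at 95% (Python 3.11.15, numpy 2.4.6, scipy 1.17.1); classification and motif search were tested on simulated data. The dm3 lists were not used. The named genes are those of the 20 strongest peaks, the strongest of each kind, listed genes with a peak, those at the limits of the rule, the 5 with the largest ratios of rank between replicates, and genes with several peaks. The snRNA, antisense and other processed-RNA genes beyond these were named after their values were seen. The peaks, lists and motifs were chosen with earlier results of these data known.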

Additional observations from a re-analysis of the deposited data

How the results depend on the processing

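No paired analysis was possible because there is 1 group. The number of peaks that met the rule was 102 as reported, 57 among the 2022 strongest peaks, 74 with limits of 250 bp, 146 with 1000 bp, 88 with no coding start within 1000 bp, 112 with gene-record starts, and 97 (without replicate 2) to 117 (without replicate 3) with the top list of 1 replicate. Among the 2022 strongest peaks, the median percentile of signal was 61.4 (52.5 as reported), the share in both top lists was 98.2%, 2.82% of noncoding genes and 12.5% of snRNA genes had a summit. With limits of 250 and 1000 bp, 2.75% and 9.77% of noncoding genes had one. The PAR site share fell to 0 with 100 bp windows and with no coding start within 1000 bp. Median GC was 39.5% with limits of 250 bp, 38.25% with the wider coding exclusion, 37 to 38% from 1 replicate, 35% in 100 bp windows and 40.5% in 400 bp windows. In 100 and 400 bp windows, TATAAA was in 13.7% and 46.1% and GCCAT in 15.7% and 47.1%; of 132 values of the motifs other than PAR, DRE and Motif 1, 120 stayed within the intervals reported. These settings change which peaks or bases are counted. The DRE, Motif 1, upstream and coding-body shares stayed within the intervals of the reported values under each setting run. The alternatives without the 11 peaks nearest microRNA precursors, snoRNAs or Uhg4 (91 left), without peaks near a RefSeq mRNA start and for the snRNA share were chosen after seeing the data. Unknown depth, 2 libraries and repeated gene copies limit these counts.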
